A study of Mus musculus with 6 samples.

Results

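HMGN4, BSG, DYNC1I2 and NUB1 are 4 of the 1521 named genes measured on a muscle microarray that set a MyoD-silenced clone of C2C12 cells against C2C12 control cells at days 1, 3 and 6 of differentiation. The 4 genes were chosen by their clone-over-control score, which falls strongly from day 1 to day 6, and the members are the spots that carry these symbols in the platform annotation. Each gene has 1 probe, printed in 2 spots, so no second probe of the same gene was there to set beside it. The day 1 and day 6 values of the 4 genes are therefore given as a description with no test. For these genes a test is given on day 3 alone, whose scores the choice did not use. The error of that test is estimated from the arrays of all 3 days, days 1 and 6 included.

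C2C12 is a mouse myoblast line (C3H strain) that stops dividing and fuses into myotubes when its growth medium with fetal bovine serum is replaced by a medium with little horse serum. The clone, MyoD(-)cl.A8, was transfected with a pcDNA 3.0 vector holding the mouse MyoD transcript in antisense orientation and was selected with G-418. It is 1 clone, and the labels do not say whether the control cells carried an empty vector. Total RNA of clone and control at the same stage was hybridised together on 2 arrays per day, called replicate A (clone in Cy5) and replicate B (clone in Cy3), which makes 6 arrays of 5376 spots. The arrays of a day exchange the dyes of 1 comparison, so a day counts as 1 replicate.

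The deposited value is a signed score per spot, and the sources used here state neither its scale nor its centring or direction. Its highest value, 21.6, lies beyond what a log2 ratio of a common scanner reaches, so a score unit is not read as a fold change. A positive score is taken as higher in the clone, which is likely, since in the labels the clone is named as test and the control cells as reference. Array medians over spots lay between -0.05 and 0.04 and SDs between 1.41 and 1.62. After spots of a probe and probes of a gene had been averaged, 2466 features remained (1521 genes and 945 probes without a gene name), and each array was centred on its median. Replicates A and B of a day correlated across features at 0.206, 0.164 and 0.206 on days 1, 3 and 6, which is a low agreement, and features are not independent replicates. Spot intensities were not used here, so how far a spot stood above background is unknown. Precision is limited by there being 6 arrays. Scores hold no level, so whether the cells show the defining genes of myoblasts cannot be read from them.

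The 4 genes belong to different cell functions. HMGN4 is a nucleosome-binding protein of the HMGN family, small nuclear proteins that bind nucleosome cores and loosen chromatin, and forced expression of its relative HMGN1 is known to hinder differentiation of C2C12 cells. BSG, basigin or CD147, is a membrane glycoprotein that carries the lactate transporters MCT1 and MCT4 to the cell surface and induces matrix metalloproteinases. DYNC1I2 is an intermediate chain of cytoplasmic dynein, the motor that moves cargo and, in fusing muscle cells, nuclei toward the minus ends of microtubules; the intermediate chain links the motor to dynactin. NUB1 binds the ubiquitin-like proteins NEDD8 and FAT10 and brings them to the proteasome, and NEDD8 itself switches on the cullin ubiquitin ligases.

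The probes carry human gene names, while the RNA came from mouse cells. RefSeq's table of mouse genes (GRCm38.p6) lists protein-coding genes Bsg on chromosome 10 (79704358 to 79711979), Dync1i2 on chromosome 2 (71211676 to 71263303) and Nub1 on chromosome 5 (24685815 to 24710378). In that table the name Hmgn4 appears only as a synonym of Hmgn2-ps1, a pseudogene on chromosome 5 (84123216 to 84124389), and Hmgn2, a coding member of the same family, lies on chromosome 4 (133964739 to 133967991). Which mouse transcript bound the HMGN4 probe was not tested.

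Promoters of mouse members are shown because the clone was made with an antisense transcript of MyoD, a factor that binds E-boxes, the motif CANNTG. That these genes moved together follows from their choice, and the part of MyoD in the falls was not tested. Of the members, 2 had an entry in RefSeq's promoter table, Dync1i2 and Nub1, and Bsg was not matched. The windows are 220 bases long (GRCm38.p6, plus strand), at chr2:71211456-71211675 for Dync1i2 and chr5:24685565-24685784 for Nub1, with each CANNTG in capitals. They run from 250 to 31 bases before the start used in the promoter table, which for Nub1 is the gene start given above. For Dync1i2 that start, 71211706, lies 30 bases downstream of the gene start, so the window runs from 220 to 1 base before the latter. RefSeq's table holds another window for Dync1i2, farther downstream, which is not shown.

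Dync1i2: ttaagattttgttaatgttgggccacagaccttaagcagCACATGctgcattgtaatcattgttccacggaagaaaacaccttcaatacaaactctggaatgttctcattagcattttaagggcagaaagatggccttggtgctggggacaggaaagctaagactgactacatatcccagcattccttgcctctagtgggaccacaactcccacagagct

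Nub1: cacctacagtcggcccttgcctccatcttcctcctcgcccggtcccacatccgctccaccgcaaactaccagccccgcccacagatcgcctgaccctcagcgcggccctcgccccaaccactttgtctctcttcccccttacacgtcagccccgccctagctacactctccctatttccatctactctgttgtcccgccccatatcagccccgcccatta

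The Dync1i2 window held 1 CANNTG, the letters CACATG 181 bases before the gene start and 211 before the start of the promoter table, and the Nub1 window held 0. Neither held CAGCTG, a core that MyoD is known to favour; both motifs read the same on either strand, and each CAGCTG is also a CANNTG. Of 32851 mouse promoter windows of the same length, 62.1% held at least 1 CANNTG and 11.4% a CAGCTG. A match is only a match of letters, and the windows say nothing of binding. The GC content of the windows was 44.5% for Dync1i2 and 62.7% for Nub1.

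The values by array are given first, since they chose the genes. HMGN4 (Entrez Gene 10473, spots 1299 and 1300) scored 4.34 and 3.61 on replicates A and B of day 1, 0.94 and -1.67 on day 3, and -2.50 and -3.79 on day 6. Both day 1 arrays lay far above 0 and both day 6 arrays far below it, the day 3 arrays stood on either side of 0, and the days did not overlap. BSG (Entrez Gene 682, spots 3109 and 3110) scored 4.82 and 2.91 on day 1, -1.18 and 0.16 on day 3, and -1.05 and -2.42 on day 6. For this lactate transporter partner day 1 stood apart from the later days, while days 3 and 6 overlapped.

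DYNC1I2 (Entrez Gene 1781, spots 1199 and 1200) scored 4.59 and 2.03 on day 1, 0.26 and 0.99 on day 3, and -1.49 and -2.05 on day 6. The dynein chain thus lay above 0 on the 4 arrays of days 1 and 3 and below 0 on both day 6 arrays, with no overlap between days. NUB1 (Entrez Gene 51667, spots 915 and 916) scored 1.71 and -0.19 on day 1, -1.96 and -2.53 on day 3, and -3.58 and -4.50 on day 6. The NEDD8 regulator differs from the other 3 genes in its starting point: it was close to 0 on day 1 and below 0 on all 4 later arrays, again with no overlap between days.

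**Figure D1:**
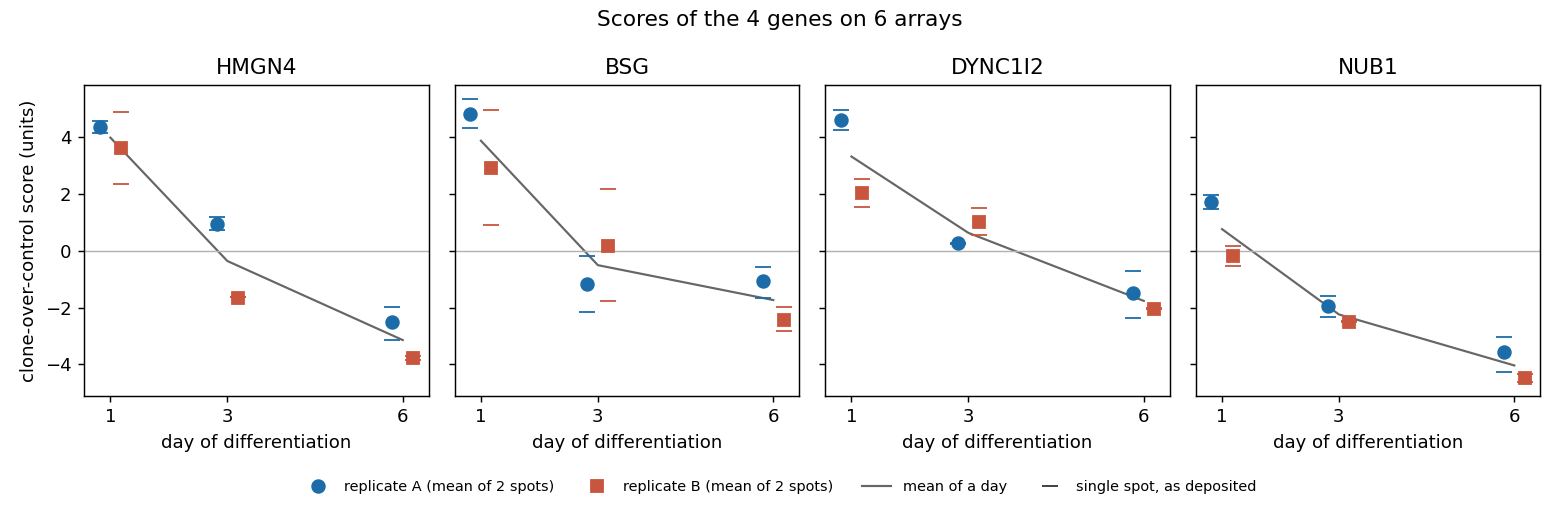
Clone-over-control score (units) against day of differentiation for HMGN4, BSG, DYNC1I2 and NUB1; circles are replicate A, squares replicate B (each the mean of 2 spots, centred on the array median), dashes the single spots as deposited, and the line joins the means of each day. All 4 lines descend, from day 1 means between 0.76 and 3.97 to day 6 means between -4.04 and -1.74, and the spots of BSG lie farthest apart.

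The day means of HMGN4 were 3.97, -0.36 and -3.14, a change of -7.12 from day 1 to day 6 (-6.84 in replicate A and -7.40 in replicate B). BSG had day means of 3.86, -0.51 and -1.74 and changed by -5.60 (-5.87 and -5.33 in the replicates). DYNC1I2 had means of 3.31, 0.62 and -1.77 and changed by -5.08 (-6.08 and -4.08). NUB1 had means of 0.76, -2.24 and -4.04 and changed by -4.80 (-5.29 and -4.30). The smallest of the 4 differences between a day 6 and a day 1 array was -6.10 for HMGN4, -3.96 for BSG, -3.51 for DYNC1I2 and -3.39 for NUB1, so each gene fell whichever arrays were paired. Over the 3 days the mean score was 0.15 ± 3.59 for HMGN4 and 0.54 ± 2.94 for BSG (SD, n = 3 days). It was 0.72 ± 2.54 for DYNC1I2 and -1.84 ± 2.42 for NUB1. The spread between days exceeded the mean for all 4 genes, but it rests on the change that chose them, so nothing is read from it.

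Among the 1521 genes ordered by this change, HMGN4 had rank 1, BSG rank 3, DYNC1I2 rank 4 and NUB1 rank 5. RPL17, a protein of the large ribosomal subunit that is not a member, stood at rank 2 with a change of -6.04. The rule gives no threshold, and the genes next in order were CES1, a carboxylesterase, at -4.75 and CD81, a tetraspanin of the cell membrane, at -4.38, against -4.80 for NUB1 as the last member. CD81 shows how a similar change can rest on 1 array, since it scored 8.24 on replicate A of day 1 and -0.35 on replicate B. The median change of all features was 0.01, with quartiles of -0.78 and 0.79.

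Counts at fixed thresholds place the 4 genes against all features. All 4 differences reached 2 units downward for 4 of the 4 genes and for 1.22% of 2466 features (30), and nothing is read from this, since the rule used it. On day 1, HMGN4, BSG and DYNC1I2 were at least 2 units higher on both arrays, as were 0.527% of features (13). On day 6, HMGN4 and NUB1 were at least 2 units lower on both arrays, as were 1.14% of features (28), while BSG and DYNC1I2 missed this on replicate A. On day 3 none of the 4 genes was at least 2 units lower on both arrays, against 0.811% of features (20). With the day 6 and day 1 arrays in limma, a linear model whose error comes here from arrays of exchanged dyes alone, 0.365% of features (9) were called at an adjusted p under 0.05; for the 4 genes this contrast is the one that chose them, so no test of it is given. That count was 0 without replicate A or without replicate B of day 1, 28 without replicate A of day 6, and 5 without replicate B of day 6, without either day 3 array, or with the replicate letter (the dye orientation) as a block.

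**Figure D2:**
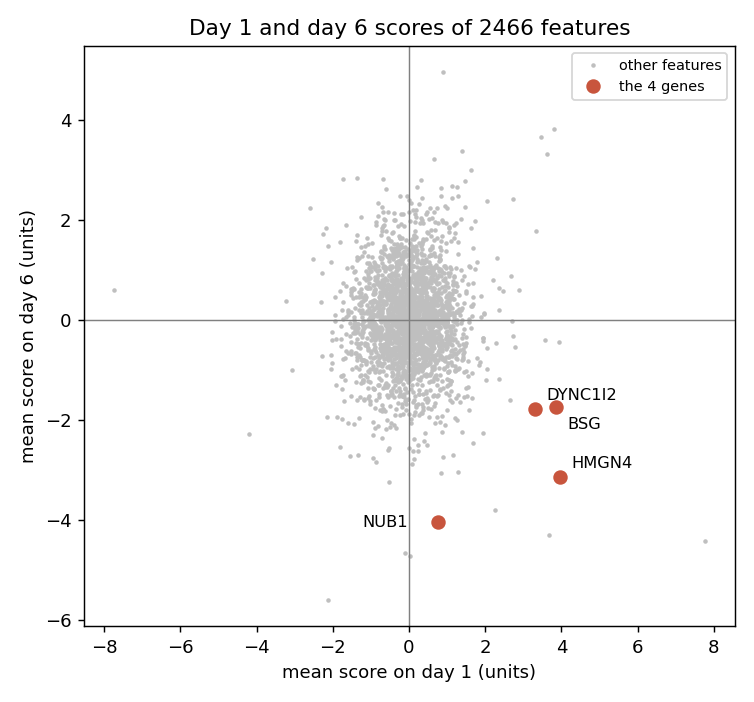
Mean score on day 6 (units) against mean score on day 1 (units); each grey point is 1 of 2466 features and the 4 red points are HMGN4, BSG, DYNC1I2 and NUB1. HMGN4, BSG and DYNC1I2 lie to the lower right of the cloud, while NUB1, at 0.76 on day 1, lies below it.

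Day 3 asked where the genes stood between the days used to choose them. NUB1 was lower in the clone on both day 3 arrays, with a mean of -2.24 (SE 0.67), which ranked 38th from the bottom of 2466 features. It did not pass limma's test over all features (adjusted p = 0.213, unadjusted 0.00459), and over the alternatives its adjusted p ran from 0.156 to 0.659. The median of 10 probes printed around NUB1 was also below 0 on both day 3 arrays, at -0.48 on replicate A and -1.08 on replicate B. With this median subtracted the day 3 mean of NUB1 was -1.45. HMGN4 at -0.36 (SE 0.72, limma's adjusted p = 0.940), BSG at -0.51 (SE 0.70, 0.912) and DYNC1I2 at 0.62 (SE 0.71, 0.878) lay within 1 SE of 0. Thus 0 of 4 genes were called on day 3, against 0.324% of features (8), and 1 of 4 had an unadjusted p under 0.05, as did 236 features (9.57%). The count of 8 features was 4 without either day 1 array, without replicate B of day 3, or with the replicate letter as a block, and none of these settings called a member. A p that misses the threshold does not show that the scores were 0.

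The day 3 mean lay between those of days 1 and 6 for all 4 genes. Of the 30 features that fell by at least 2 units in all 4 differences, the 4 genes among them, 24 had such a day 3 mean. The 4 genes thus share this with most features past that threshold. By day 3 the mean had moved by -4.38 for BSG and by -4.34 for HMGN4, which is 78.1% and 60.9% of their whole change. NUB1 had covered 62.6% and DYNC1I2, which had moved by -2.68, 52.9%. From day 3 to day 6 the further steps were -1.23 for BSG, -2.78 for HMGN4, -1.79 for NUB1 and -2.39 for DYNC1I2. The shares and steps rest on the day 1 and day 6 values that chose the genes, so they are a description. Whether the shares differ between genes was not tested, and for BSG the later step lies within the gap between the single arrays. For HMGN4, DYNC1I2 and NUB1 both arrays of each day lay below both arrays of the day before, an order found in 42 of 2466 features (1.70%). The day 1 and day 6 values that chose the genes largely fix this order, so nothing is read from it.

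The duplicate spots are the same measure repeated within an array. The 2 spots of DYNC1I2 and of HMGN4 had the same sign on 6 of 6 arrays, and those of BSG and NUB1 on 5 of 6. The mean gap between spots was 0.59 units for NUB1, 0.73 for DYNC1I2, 0.79 for HMGN4 and 2.14 for BSG, against a mean of 1.29 over all probes and arrays. BSG was the least repeatable of the 4 genes. Its spots scored 4.93 and 0.92 on replicate B of day 1 and 2.16 and -1.77 on replicate B of day 3, and the gap was no wider than this in 96.7% and 98.0% of probes on these arrays. On day 6 the gap between the BSG spots was near the array median, with scores of -0.59 and -1.65 on replicate A and of -1.98 and -2.83 on replicate B. For HMGN4 the widest gap, 4.89 against 2.36, fell on replicate B of day 1.

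Replicates A and B differ in dye orientation. On day 1 replicate A was higher than replicate B for all 4 genes, by a deviation from the day's mean of 0.37 for HMGN4, 0.96 for BSG, 1.28 for DYNC1I2 and 0.95 for NUB1. On day 6 it was again higher for all 4 (0.28 to 0.69), and on day 3 for HMGN4 and NUB1 only. An equal dye effect cancels in the mean of a day. The day 1 means of HMGN4, BSG and DYNC1I2 were more than 2 times these deviations, whereas the day 1 mean of NUB1, 0.76, was smaller than its deviation. The day 1 values helped to choose the genes, so this is a description, and the part of the dyes was not tested.

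Scores were also set beside those of the probes printed around each gene. The median of 10 such probes, at every even distance up to 10 places before and after it, ran from -0.42 to 0.97 for HMGN4, from -1.46 to 0.54 for BSG, from -0.01 to 1.21 for DYNC1I2 and from -1.08 to 0.63 for NUB1 over the 6 arrays. After this median had been subtracted, the change from day 1 to day 6 was -7.28 for HMGN4, -5.64 for BSG, -4.79 for DYNC1I2 and -4.19 for NUB1. This median leaves out the adjacent probes, some of which moved the same way. The probe after HMGN4 changed by -2.75 and the probe before it by 1.28, and the probes before and after DYNC1I2 changed by -2.33 and -0.90. Of the 24 probes within 12 places, the score was lower on day 6 than on day 1 for 10 around HMGN4, 13 around BSG, 14 around DYNC1I2 and 18 around NUB1. Their median change was 0.36, -0.06, -0.63 and -0.52 respectively, and the lowest was -4.79, -2.26, -3.25 and -1.68. Each was smaller than the fall of the gene itself, but the genes were chosen for that fall, so nothing is read from this. Around DYNC1I2 the sides differed, since most probes after it were lower on day 6 and most probes before it were higher. As deposited, the probe 10 places after it went from 2.03 on day 1 to -1.22 on day 6. The probe 9 places after it went from 1.88 to -0.86, and that 4 places after it from 0.33 to 0.42. A median over both sides does not remove a fall on 1 side. The part of position on the array in the falls was not tested. Subtraction of the median moved single values more. DYNC1I2 went from 2.03 to 1.61 on replicate B of day 1, below 2 units, and its day 3 mean from 0.62 to -0.17, while the day 3 mean of NUB1 went from -2.24 to -1.45.

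**Figure D3:**
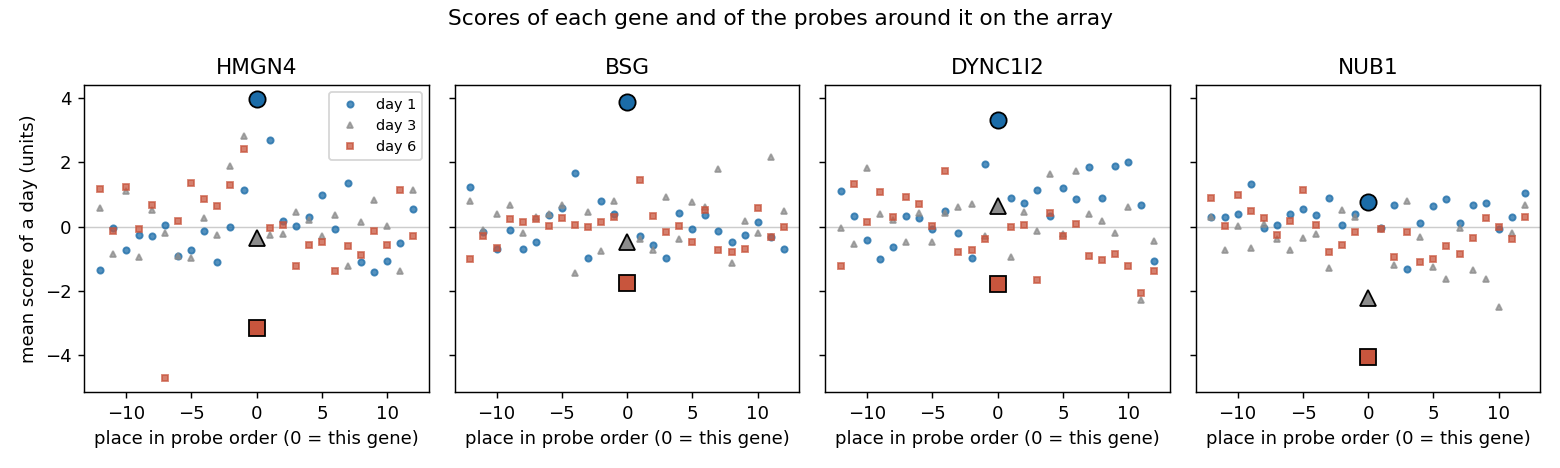
Mean score of a day (units, as deposited) against place in probe order, from 12 places before to 12 after each of the 4 genes; circles are day 1, triangles day 3 and squares day 6, with the gene itself at place 0 in large outlined symbols. The day 1 and day 6 values of HMGN4, BSG and DYNC1I2 lie apart from most of their neighbours. For NUB1 this holds for the day 6 value of -4.06 and not for the day 1 value of 0.77. The genes were chosen on these days.

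The profiles of the 4 genes over the 6 arrays correlated with each other at 0.892 (HMGN4 and BSG) to 0.975 (DYNC1I2 and NUB1). They were chosen for a shared fall, so high values follow from the choice. Likeness to other genes was measured by Pearson's r over the 6 arrays among the 308 genes whose day means span at least 2 units. HMGN4 was most like RPL17 (r = 0.997), the secreted glycoprotein LGALS3BP (0.994) and the translation elongation factor subunit EEF1B2 (0.979). NUB1 was most like LGALS3BP (0.986), DYNC1I2 (0.975) and HMGN4 (0.967). BSG was most like NUB1 (0.959), DYNC1I2 (0.953) and the ribosomal protein RPL27A (0.951), and DYNC1I2 was most like NUB1 (0.975), BSG (0.953) and SLC35B2 (0.944), a nucleotide sugar transporter of the Golgi.

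RPL17 scored 2.60 and 1.91 on day 1, -0.18 and -2.61 on day 3, and -2.92 and -4.66 on day 6, in nearly the same steps as HMGN4. LGALS3BP has a similar shape at a smaller size, with day means of 1.04, -0.31 and -1.03. EEF1B2 had day means of 0.84, -1.34 and -3.06.

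TNNI2, the inhibitory subunit of fast skeletal troponin, had the most opposite profile to HMGN4 (r = -0.993) and NUB1 (-0.982). Its day means were -1.80, 0.11 and 1.57. For DYNC1I2 (-0.934) it came after PDK2, and for BSG it was not among the 2 most opposite genes. Also opposite were the copper chaperone ATOX1 for HMGN4 (-0.934), the mitochondrial malate dehydrogenase MDH2 for NUB1 (-0.943), the kinase PDK2, which inhibits pyruvate dehydrogenase, for DYNC1I2 (-0.977), and the polarity protein SCRIB (-0.985) and the kinase STK11 (-0.936) for BSG. With 6 arrays and 308 genes, correlations of this size are a description only. The arrays of a day share their RNA, and which genes are named changes with the measure.

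Other genes of the 4 pathways asked whether genes of related function moved with the members. Their lists were chosen with earlier results of these data known, so the counts are a description. Of 161 listed genes 32 were measured. From day 1 to day 6, 12 of them went down and 20 up, with a median change of 0.31 against 0.01 for all features. None was called in limma in either direction (0 of 32, against 0.365% of all features), and none was called on day 3. At an unadjusted p under 0.05 there was 1 of 32, against 204 of 2466 features (8.27%).

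For the list set beside HMGN4, of nucleosome-binding proteins, histones and their chaperones, 5 of 35 genes were measured. Of these, 3 were lower and 2 higher on day 6 than on day 1, with a median change of -0.06. The lowest was H3-3A, a replacement histone H3, which scored 0.82 and 0.92 on day 1, 1.24 and 1.23 on day 3, then -1.79 and -2.03 on day 6. Its change was -2.78 (limma's adjusted p = 0.401). Unlike HMGN4 it stood above 0 on day 3. H2AZ1, a variant of histone H2A, was at least 2 units lower on both day 6 arrays (-2.93 and -2.48), but already lay below 0 on day 1 (mean -1.34), so that its change was -1.37 (adjusted p = 0.738 in limma). The linker histone H1-2 changed by -0.06, the histone chaperone SET by 0.33 and the nucleosome assembly protein NAP1L4 by 0.73. No other HMGN gene was among the named genes of the array.

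For basigin's partners and lactate metabolism 2 of 25 genes were measured. The lactate dehydrogenase subunit LDHB changed by 0.01 and the sodium pump subunit ATP1B1 by -0.08, while BSG changed by -5.60. The lactate transporters that BSG carries were not among the named genes of the array.

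For dynein, dynactin and kinesin 8 of 35 genes were measured, 2 lower and 6 higher on day 6, with a median change of 0.39. DYNC1H1, the heavy chain of the same motor as DYNC1I2, had day means of 0.63, -1.54 and 0.03 and changed by -0.60 (limma's adjusted p = 0.893). The dynactin subunit DCTN5 changed by -0.59 and KIF1C, a kinesin, by 0.21. Toward higher scores the kinesin light chain KLC1 changed by 1.12, the kinesin KIF5C by 0.99 and the dynein light chain DYNLT1 by 0.96. The 3 dynein chains measured thus had changes of -5.08, -0.60 and 0.96.

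For NEDD8, its cullin ligases and the proteasome 17 of 66 genes were measured, 6 lower and 11 higher on day 6, with a median change of 0.45. NEDD8, the protein that NUB1 binds, had day means of 0.80, 0.76 and -0.50 and the largest downward change of the list, -1.30 (limma's adjusted p = 0.749). Proteasome subunits PSMD2 and PSMB5 changed by -1.25 and -1.07. On the other side were COPS3, a subunit of the signalosome that takes NEDD8 off cullins, at 1.79, the proteasome ATPase PSMC1 at 1.77 and RBX1, the RING subunit of cullin ligases, at 1.73.

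**Figure D4:**
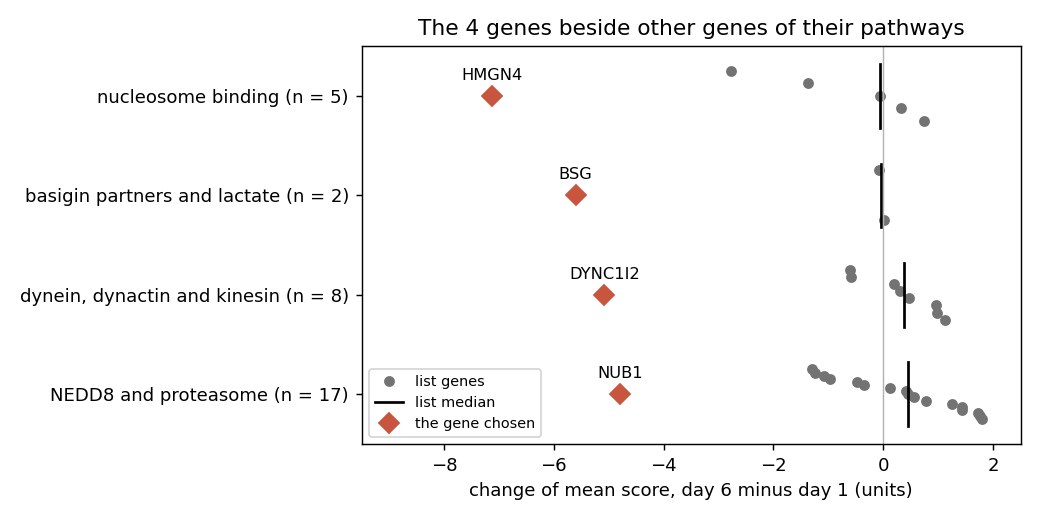
Change of the mean score from day 1 to day 6 (units) for the 32 measured genes of 4 pathway lists; grey points are list genes, black bars the list medians and red diamonds HMGN4, BSG, DYNC1I2 and NUB1 beside their own list. The list genes lie between -2.78 and 1.79, all to the right of the members, which were chosen for their fall.

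Muscle genes were measured alongside, since the clone was made to silence MyoD. Of 32 markers of differentiated muscle 19 were measured, and their median score was -0.02, -0.15 and 0.38 on days 1, 3 and 6, with medians on single arrays from -0.51 to 0.26. From day 1 to day 6, 6 went down and 13 up (median change 0.46), none of them called in limma. The highest changes were TNNI2 at 3.37, the skeletal actin ACTA1 at 3.07 and the troponin TNNT3 at 2.08, and the lowest were myoglobin (MB) at -2.71, the troponin TNNI1 at -0.39 and the myosin light chain MYL2 at -0.38. MYH7, the slow myosin heavy chain, was at least 2 units lower on both day 3 arrays (mean -3.66, limma's adjusted p = 0.0145). MYOD1 itself had day means of 0.02, 0.04 and 0.38; the antisense construct is transcribed from MyoD sequence and which strand the probe reads is not stated, so these values do not check the silencing.

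Markers of fibroblasts and smooth muscle, 4 of 14 measured, had median scores of -0.46, -0.53 and -0.02 on days 1, 3 and 6, with changes of -0.63 for FN1, -0.24 for VIM, 0.82 for TAGLN and 2.09 for CNN1. The adipocyte markers FABP4 and SCD, 2 of 8 measured, changed by -1.12 and -0.08. No marker of these lists was called from day 1 to day 6. The part of muscle differentiation or of other cell types in the fall of the 4 genes was not tested, and in bulk RNA fewer cells of a type cannot be told apart from less RNA per cell.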

How the data were processed

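RNA of clone and control was hybridised to 6 two-colour arrays, 2 per day with exchanged dyes (per the labels' protocols). The authors deposited 1 score per spot; background correction, normalization and filters are not given in the sources used here. Odd and following even spots carried 1 symbol in 1743 of 1743 named pairs and were averaged to 2688 probes; 3486 spots had 1 gene symbol in the platform annotation, 1890 none and 0 several. Probes of a gene were averaged (144 genes had several) and arrays centred on their medians.

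All 2466 features were fitted with limma 3.58.1 (R 4.3.3) on 6 arrays, the 3 days as coefficients, two-sided, with Benjamini-Hochberg adjustment and a threshold of 0.05; the fit was tested on simulated data. Arrays of a day share the same RNA, so p-values measure technical spread. Replicate letters mark dye orientation, and deviations of equal letters correlated at -0.04 to -0.00184 between days. The 4 genes, lists and thresholds were chosen with earlier results of these data known.

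Genes named are the members, per member the 3 most like and 2 most opposite, the neighbours in the order of change, and per list the 3 highest and 3 lowest changes and genes 2 units from 0 on both arrays of a day; MYOD1 was named for being the silenced gene. Alternatives were values as deposited, scaled values, separate probes, neighbours subtracted, a replicate block, other thresholds, other likeness measures and leaving out each array. Sequences and mouse gene positions are RefSeq's (GRCm38.p6). Plots used matplotlib 3.10.9 in Python 3.11.15.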

Additional observations from a re-analysis of the deposited data

Results flagged for a closer look

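For 3 of the 4 genes both arrays of an early day lay on the other side of 0 from both arrays of day 6. HMGN4 went from a mean of 3.97 on day 1 to -3.14 on day 6. BSG went from 3.86 to -1.74, and DYNC1I2 from 3.31 on day 1 and 0.62 on day 3 to -1.77 on day 6. No test of these differences is given, because the fall from day 1 to day 6 chose the genes. Both day 1 arrays above 0 and both day 6 arrays below 0 were found in 196 of 2466 features (7.95%), so the order of signs alone is common in these data. NUB1 is not among them, since replicate B of day 1 scored -0.19. With 2 arrays per day no array could be examined for standing apart from its group.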

How the results depend on the processing

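The change from day 1 to day 6 was below 0 for all 4 genes under every alternative run. The genes were chosen for this fall, and every pairing of a day 6 with a day 1 array showed it, so nothing is read from its sign. With 1 array left out the change ran from -7.77 to -6.47 for HMGN4, -6.56 to -4.65 for BSG, -6.36 to -3.79 for DYNC1I2 and -5.75 to -3.84 for NUB1. On day 3 no member passed limma's test in any setting. Day 3 means with 1 array left out ran from -1.67 to 0.94 for HMGN4, -1.18 to 0.16 for BSG, 0.26 to 0.99 for DYNC1I2 and -2.53 to -1.96 for NUB1. With 2 arrays per day these ends are the values of the single day 3 arrays, so they are no check of the sign. With neighbouring probes subtracted the day 3 mean of DYNC1I2 stood at -0.17. With the replicate letter as a replicate block, 4 features were called on day 3 and 5 from day 1 to day 6. With separate probes these counts were 15 and 15 (2688 features), and with neighbouring probes subtracted 19 and 14. With 1 array left out they ran from 4 to 11 and from 0 to 28, and no list gene was called from day 1 to day 6 in any setting. Counted in either direction, features past the threshold on both arrays numbered 177, 46 and 8 on day 1 at 1, 1.5 and 3 units. On day 3 they numbered 204, 79 and 7, and on day 6 they numbered 268, 113 and 7. From day 1 to day 6 they numbered 233, 107 and 15. At 2 units the counts in either direction were 20, 31 and 45 on days 1, 3 and 6, and 45 from day 1 to day 6. The counts at 2 units given further above are of a single direction. Of the 3 genes most like each member, day means kept 1 for HMGN4, 0 for BSG, 0 for DYNC1I2 and 1 for NUB1, and Spearman's rho, which has many ties over 6 arrays, kept 1, 1, 1 and 2. Causes of these differences were not tested. Values as deposited and scale normalization moved no member's change beyond the spread between its replicates. The low agreement between arrays of a day limits what the scores can show.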
